A study of Homo sapiens with 2 samples.

Results

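The genes described are 9 whose proteins are known, apart from histones, as substrates of the lysine methyltransferase SET7/9: RELA, STAT3, DNMT1, E2F1, FOXO3, YAP1, HIF1A, TAF10 and RB1. They were chosen as a list of substrates by name, and every gene probe carrying 1 of these names in the array design was taken, which gave 14 probes for 9 of the 25940 gene names on the array. SET7/9, encoded by SETD7, adds a single methyl group to lysines of histone H3 and of many regulatory proteins. On these proteins the mark is known to act on stability, DNA binding or localisation after translation, so it has no fixed consequence for the amount of the substrate's own mRNA. The question put to the data was whether the mRNAs of the substrates moved when SET7/9 was depleted, and how strongly each was expressed in the cells that were used.

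Total RNA came from MKN74 and MKN45, both established human gastric cancer cell lines, at 48 hrs after electroporation with siRNA at 50 nM. In each cell line, cells given SET7/9 siRNA were compared with cells given negative control siRNA on 1 two-colour Agilent array, with SET7/9 siRNA in Cy5 and the negative control in Cy3. The dyes were not swapped and there were no replicate arrays, so the number of arrays limits the precision, a dye effect and a knockdown effect cannot be told apart at a single probe, and no p-value is given within a cell line. The log2 ratio is that of Cy5 over Cy3, a positive value being higher with SET7/9 siRNA, and the cutoff was the 1.5-fold change that the study used, 0.58 on the log2 scale. The error given after a ratio is that of the scanner software's error model for the spot, and SD is the spread over repeated spots of 1 probe. Neither holds any variation between cultures. Intensity is the background-subtracted and dye-normalized signal of the scanner software. It is not compared between probes, except in the summed marker intensities, which are only a rough guide. The arrays report a whole culture, in which fewer expressing cells and less mRNA per cell cannot be told apart.

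The epithelial markers EPCAM, KRT8, KRT18, KRT19, CDH1 and CLDN4 were well above background in Cy3 for 6 of 6 genes in both cell lines. Of 9 markers of other cell types, 3 were well above background in Cy3 in MKN74 and 6 in MKN45. COL1A2, CD3E and VWF were not well above background in Cy3 in either cell line. In Cy5, CD3E was well above background in MKN45, and so was 1 of 2 VWF probes on each array. The Cy3 intensities of the brightest probe per gene, summed over all 9, were 659 in MKN74 and 467 in MKN45. For the epithelial markers the sums were 373174 and 351329. The targeted gene SETD7 had a log2 ratio of -2.03 in MKN74 and -1.95 in MKN45, both with an error of 0.28, at its more 3′ probe, and -1.36 and -0.99 on values corrected by normexp and normalized by loess. Normexp here adds an offset of 50 to every signal, which draws the ratios of dim probes towards 0. The more 5′ SETD7 probe was at 0.24 and -0.23, with errors of 0.22 and 0.21.

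The array sequences show what was measured. Of the 14 probes, 8 have a forward frame without a stop codon. Of these 8, 5 were taken as coding because that frame reads as the known protein of the gene, not from an annotation of the build, which was not used here. They are printed 5′ to 3′ as the array design gives them, because 4 of them give a second, independent reading of genes whose other probe lies further 3′, and the YAP1 probe carries the result that differed most between the cell lines. Positions are on GRCh37, and the capitals in the YAP1 probe mark the only lysine codon of its open reading frame, that of the C-terminal lysine known as the SET7/9 site in YAP1.
YAP1, chr11:102100584-102100643, plus strand: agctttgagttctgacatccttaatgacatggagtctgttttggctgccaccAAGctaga
RELA probe 1, chr11:65421986-65422045, minus strand: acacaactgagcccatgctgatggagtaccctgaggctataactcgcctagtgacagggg
STAT3 probe 1, chr17:40474404-40474463, minus strand: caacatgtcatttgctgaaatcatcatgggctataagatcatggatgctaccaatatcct
FOXO3 probe 1, chr6:108985954-108986013, plus strand: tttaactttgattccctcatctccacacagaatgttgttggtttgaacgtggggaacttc
HIF1A probe 1, chr14:62211472-62211531, plus strand: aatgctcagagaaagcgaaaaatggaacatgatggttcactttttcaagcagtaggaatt
Within a gene, probes are numbered from the most 5′. The YAP1 probe and the more 3′ probes of RELA, STAT3 and HIF1A, together with those of E2F1 and RB1, were printed 10 times per array, and the other 8 probes once.

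None of the 14 substrate probes measured in both channels reached the cutoff in MKN74, and none of 13 did in MKN45. In MKN74 all 14 probes were well above background in both channels. No substrate probe was lower by 1.5-fold, where 1.76% of the 20674 probes kept on that array were, and none was higher, where 3.78% were. In MKN45, 13 probes of 8 genes were well above background in both channels, and YAP1 was not. There too no substrate probe was lower by 1.5-fold, where 1.97% of 22830 probes were, and 1 was higher, the YAP1 probe, where 4.81% were. Among probes with both channels well above background, as all the substrate probes but that of YAP1 in MKN45 were, 1.45% were lower and 0.640% higher in MKN74, and 1.62% and 0.814% in MKN45. The 14 ratios of MKN74 lay between -0.23 and 0.40, and the 13 of MKN45 between -0.22 and 0.31. These ratios were smaller than their own error, which was 0.20 to 0.23, for 10 probes in each cell line. The share of all probes within their own error was not counted. The median absolute log2 ratio of these substrate probes was 0.093 in MKN74 and 0.168 in MKN45. Over all probes measured in both channels it was 0.118 and 0.121. The ratios beyond their error were those of DNMT1, FOXO3 probe 3, HIF1A probe 2 and STAT3 probe 2 in MKN74, and of FOXO3 probes 2 and 3 and STAT3 probe 2 in MKN45.

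**Figure D1:**
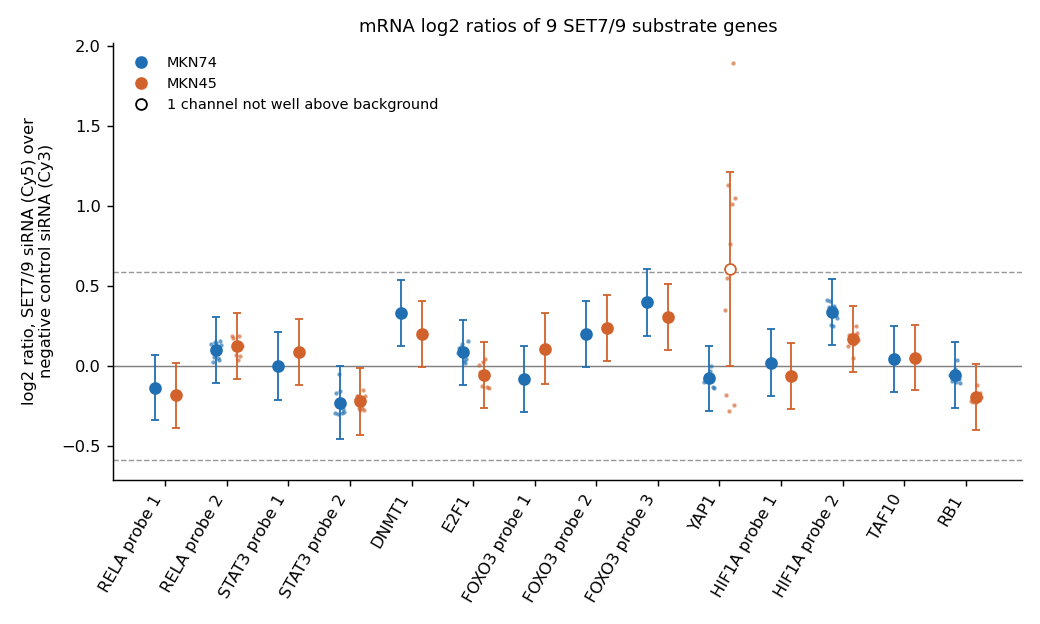
Log2 ratio of SET7/9 siRNA (Cy5) over negative control siRNA (Cy3) for each of the 14 substrate probes in MKN74 and MKN45; large points are probe means with the scanner software's error, small points are repeated spots, dashed lines mark 1.5-fold, and the open point is the YAP1 probe in MKN45, where Cy3 was not well above background. The filled points lie between the dashed lines, and the spots of the open point run from -0.28 to 1.89.

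With the brightest kept probe standing for each gene, the median log2 ratio of the 9 substrate genes was 0.09 in MKN74 and 0.12 in MKN45, against 0.0045 over 15989 genes and 0.015 over 17544 genes. Without YAP1 the median in MKN45 was 0.11. With the mean over the probes of a gene in place of the brightest probe, the medians were 0.043 and 0.051. A limma fit that treated the arrays as a pair of knockdown replicates, with 1 residual degree of freedom, called 0 of the 14 probes at a Benjamini-Hochberg threshold of 0.05, and 0% of the 19595 probes tested. An unadjusted p under 0.05 in limma was found for 5 of the 14 and for 2569 of the 19595 probes. The adjusted p of the 14 in limma ran from 0.360 to 0.947. On values corrected by normexp and normalized by loess, limma called 1708 of the 19595 probes and 3 of the 14 substrate probes. The limma mean log2 ratios were 0.33 for DNMT1 (adjusted p = 0.0136), 0.29 for FOXO3 probe 2 (adjusted p = 0.0184) and 0.37 for FOXO3 probe 3 (adjusted p = 0.00828). The FOXO3 probes called overlap and are not independent. SET7/9 siRNA carried the same dye on both arrays, so a knockdown effect and a dye effect cannot be told apart in these calls.

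Among the transcription factors that answer to cytokines, RELA encodes the p65 subunit of NF-kB. At RELA probe 2 the 10 spots in MKN74 had log2 ratios from 0.03 through a median of 0.12 to 0.15, with a mean of 0.10 ± 0.05 (SD over spots). In MKN45 they ran from 0.04 through 0.13 to 0.19, with a mean of 0.12 ± 0.05, so the spot ranges of the cell lines overlapped. RELA probe 1, 275 bases nearer the 5′ end, was on the other side of 0, at -0.14 in MKN74 and -0.18 in MKN45, and the error was 0.20 on both arrays. The sign of a RELA ratio thus depended on the probe and not on the cell line, and each of these ratios was within its error.

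STAT3 carries signals of interleukin-6 type cytokines through the JAK kinases. At STAT3 probe 2 the log2 ratios of the 10 spots in MKN74 ran from -0.30 through a median of -0.25 to -0.05, with a mean of -0.23 ± 0.08. The 9 spots used in MKN45 ran from -0.28 through -0.20 to -0.15, with a mean of -0.22 ± 0.05. All of these spots were below 0, and the ranges overlapped. STAT3 probe 1, 8421 bases upstream in the genome, was at 0.00 in MKN74 and 0.09 in MKN45, both with an error of 0.21, and did not share the lower values.

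FOXO3 is a forkhead factor kept out of the nucleus by AKT and SGK1 when growth factors are present. FOXO3 probe 1 was at -0.08 in MKN74 and 0.11 in MKN45, with errors of 0.21 and 0.22. FOXO3 probe 2 was at 0.20 and 0.24 and probe 3 at 0.40 and 0.31, with errors of 0.20 to 0.21. The highest substrate ratio measured in both channels was that of FOXO3 probe 3 in both cell lines. Probes 2 and 3 share 24 bases and are not independent readings. For every FOXO3 probe, probe 1 included, the array design lists a non-coding accession beside the FOXO3 transcripts. FOXO3 has a near-identical pseudogene, and signal from it could not be separated.

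HIF1A encodes the oxygen-regulated subunit of hypoxia-inducible factor. At HIF1A probe 2 the 8 spots used in MKN74 ran from 0.25 through a median of 0.34 to 0.41, with a mean log2 ratio of 0.34 ± 0.06. The 9 spots used in MKN45 ran from 0.05 through 0.19 to 0.25, with a mean of 0.17 ± 0.06. The spots of MKN45 lay below those of MKN74 without overlap, the nearest spots both rounding to 0.25, and all were above 0. The difference of -0.17 was smaller than the combined software error of 0.29. How often spot ranges failed to overlap among all repeated probes was not counted. HIF1A probe 1, 3313 bases upstream, was at 0.02 (error 0.21) and -0.06 (error 0.21).

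Each of the 4 genes with several probes therefore had probes that differed in the same direction on both arrays, which held for 6 of 6 probe pairs. The 6 pairs are not independent, since the FOXO3 pairs share probes and FOXO3 probes 2 and 3 overlap. The matching share over all genes with several probes was not computed. The more 3′ probe was higher than the more 5′ one by 0.23 and 0.31 for RELA in MKN74 and MKN45, by 0.31 and 0.23 for HIF1A, and by 0.48 and 0.20 for the outer FOXO3 probes. For STAT3 it was the lower one, the difference being -0.23 and -0.31. The differences exceeded the combined error of the probes, between 0.29 and 0.31, for 2 pairs in MKN74, those of HIF1A and of the outer FOXO3 probes, and for 2 pairs in MKN45, those of RELA and STAT3. SET7/9 siRNA carried the same dye on both arrays, so a shared difference between probes and a dye effect of a probe cannot be told apart.

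**Figure D2:**
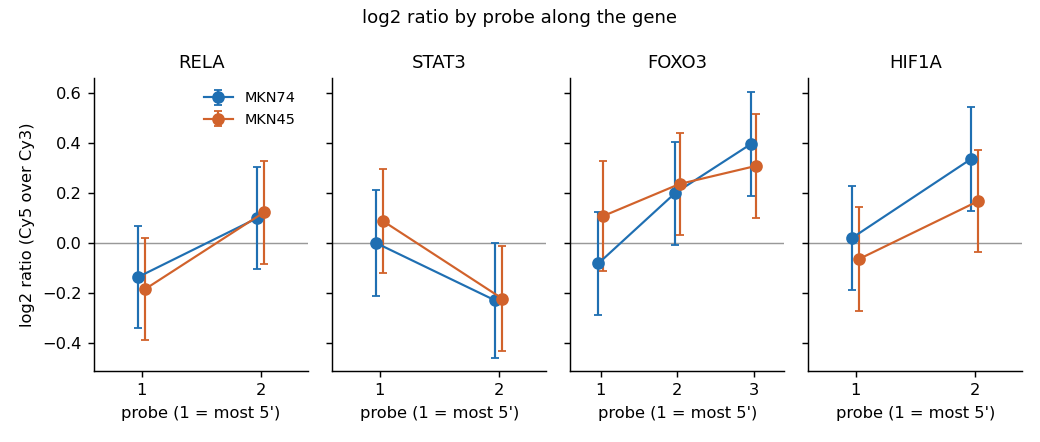
Log2 ratio (Cy5 over Cy3) of the probes of RELA, STAT3, FOXO3 and HIF1A, ordered from the most 5′ probe, in MKN74 and MKN45, with the scanner software's error as bars. The lines of the cell lines slope the same way within each gene, upward for RELA, FOXO3 and HIF1A and downward for STAT3.

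The remaining substrates had a single probe each. DNMT1, the maintenance DNA methyltransferase, was at 0.33 in MKN74 and 0.20 in MKN45, with errors of 0.21 and 0.20, from 1 spot per array. TAF10, a subunit of the general transcription factor TFIID, was at 0.04 and 0.05, both with an error of 0.20.

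RB1 encodes the retinoblastoma pocket protein, which holds E2F factors inactive. The 8 RB1 spots used in MKN74 ran from -0.11 through a median of -0.07 to 0.04, with a mean log2 ratio of -0.06 ± 0.05. The 9 spots used in MKN45 ran from -0.23 through -0.21 to -0.12, with a mean of -0.19 ± 0.03. The spot ranges did not overlap, MKN45 being the lower, while the difference of -0.14 was smaller than the combined software error of 0.29. E2F1, the activating factor that RB1 binds, had 10 spots from 0.02 through 0.08 to 0.16 in MKN74 and from -0.14 through -0.05 to 0.04 in MKN45. Its means were 0.09 ± 0.05 and -0.06 ± 0.07, and the ranges overlapped.

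YAP1 is the coactivator that Hippo signalling keeps out of the nucleus. In MKN74 the 10 YAP1 spots had Cy3 intensities from 2353 through a median of 2428 to 2537 and Cy5 intensities from 2214 through 2308 to 2384. The log2 ratio there was -0.08 ± 0.04, with spots from -0.14 to 0.00. In MKN45 the Cy3 intensities of the same 10 spots ran from 3.78 through 8.05 to 16.3 and those of Cy5 from 9.01 through 13.9 to 16.6. Cy3 was well above background on 0 of these spots and Cy5 on 9 of 10. The log2 ratio in MKN45 was 0.60 ± 0.71 (SD over spots; software error 0.61), with a median of 0.66 and spots on both sides of 0. It is the only substrate ratio past the cutoff, it rests on a control signal not well above background, and no fold bound above 1 could be given for it. After normexp and loess it was 0.055, after median centring 0.34, and the deposited table of log2 ratios holds no value for it. The normexp offset of 50 draws the ratio of signals this dim towards 0 by construction.

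**Figure D3:**
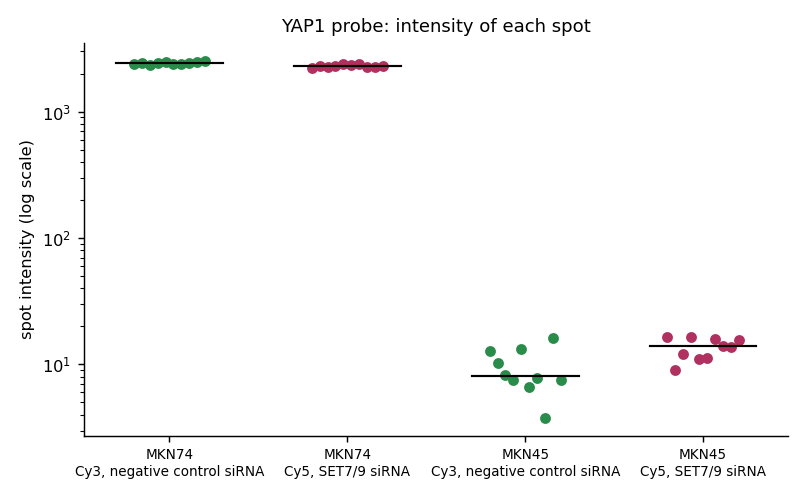
Intensity of each of the 10 spots of the YAP1 probe, on a log axis, in Cy3 (negative control siRNA) and Cy5 (SET7/9 siRNA) of the MKN74 and MKN45 arrays, with the median as a bar. The spots of MKN74 lie between 2214 and 2537 and those of MKN45 between 3.78 and 16.6.

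Between the cell lines, the substrate ratios measured in both channels of both arrays differed by 0.19 or less. For the 13 probes measured in both channels of both arrays, the log2 ratio of MKN45 minus that of MKN74 ran from -0.17 for HIF1A probe 2 to 0.19 for FOXO3 probe 1. All 13 differences were smaller than the combined software error of 0.29 to 0.31. They include HIF1A probe 2 and RB1, whose spots did not overlap between the cell lines. The share of all 17362 probes within their combined error was not counted. The ratios of the cell lines lay on the same side of 0 for 10 of the 13, STAT3 probe 1 counted although it was at 0.00 in MKN74, which is 76.9% against 65.9% of the 17362 probes measured in both channels of both arrays. The 3 on opposite sides were E2F1, FOXO3 probe 1 and HIF1A probe 1, each within its error of 0 in both cell lines. For YAP1 the difference was 0.68 with a combined error of 0.64, with the dim channel described above. With 1 array per cell line these differences were not tested.

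With negative control siRNA, the level of YAP1, E2F1, FOXO3, STAT3 and RB1 differed by at least 1.5-fold between the cell lines, and that of RELA, HIF1A, DNMT1 and TAF10 by less. For this comparison the arrays were brought to a common scale with limma's Aquantile method, and a signal not well above background was raised to at least the lowest signal well above background on that array. At least 1.5-fold lower in MKN45 were 5 of the 14 probes, those of E2F1, FOXO3 and YAP1, beside 33.3% of 21613 probes. At least 1.5-fold higher were 3 of the 14, those of STAT3 and RB1, beside 26.1%. Both counts are near the share of all probes, so differing between these cell lines was not particular to the substrates. Each cell line had 1 control culture on 1 array, and the differences were not tested.

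YAP1 stood farthest apart, read from a single probe with no second probe of the gene to set beside it. Its Cy3 level was at least 182-fold lower in MKN45, a bound set on the scanner software's signals by the lowest signal well above background, and its Cy5 level was 205-fold lower. On the log2 scale the Cy3 bound was -7.51, and 0.148% of the probes were as far lower in MKN45. It was -6.99 with the arrays scaled by their medians and -7.26 without scaling, and its size depended on the background correction. After normexp, which adds an offset of 50 to every signal, loess and Aquantile, the log2 difference was -4.96.

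E2F1 in Cy3 had spot intensities from 1718 through a median of 1846 to 1950 in MKN74 and from 515 through 543 to 570 in MKN45, with no overlap. After scaling it was 2.88-fold lower in MKN45 in Cy3 and 3.17-fold lower in Cy5. The FOXO3 probes had Cy3 intensities of 196, 4753 and 3138 in MKN74 and 66.2, 1555 and 1109 in MKN45, and were 3.43-fold, 2.47-fold and 2.30-fold lower after scaling. In Cy5 the FOXO3 probes were 3.01-fold, 2.40-fold and 2.45-fold lower. The 3 probes gave the same direction, although probes 2 and 3 overlap and pseudogene signal could not be separated. The Cy5 values follow from those of Cy3 and the small ratios, and are not a separate reading.

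RB1 in Cy3 had spot intensities from 1053 through 1090 to 1172 in MKN74 and from 1545 through 1642 to 1668 in MKN45, without overlap, and was 1.78-fold higher in MKN45 after scaling. In Cy5 it was 1.62-fold higher, and without scaling its log2 difference in Cy3 was 0.57, just short of the cutoff. STAT3 probe 2 ran from 63.1 through 70.5 to 78.3 in MKN74 and from 125 through 137 to 142 in MKN45, again without overlap. It was 1.64-fold higher in MKN45 after scaling, and STAT3 probe 1, at 123 and 203, was 1.57-fold higher. After normexp, loess and Aquantile the log2 difference of STAT3 probe 1 was 0.48.

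For the genes within 1.5-fold, the log2 differences of their Cy3 levels, MKN45 minus MKN74, were 0.03 and 0.35 for the RELA probes, 0.22 and 0.51 for those of HIF1A, 0.00081 for DNMT1 and -0.18 for TAF10. All 8 probes past 1.5-fold in Cy3 differed in the same direction in Cy5. Apart from YAP1, the Cy3 and Cy5 differences of a probe lay within 0.19 of each other. The scaling kept each ratio, so this gap is a probe's ratio difference between the arrays. The Cy5 values are therefore no separate support for the Cy3 differences.

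**Figure D4:**
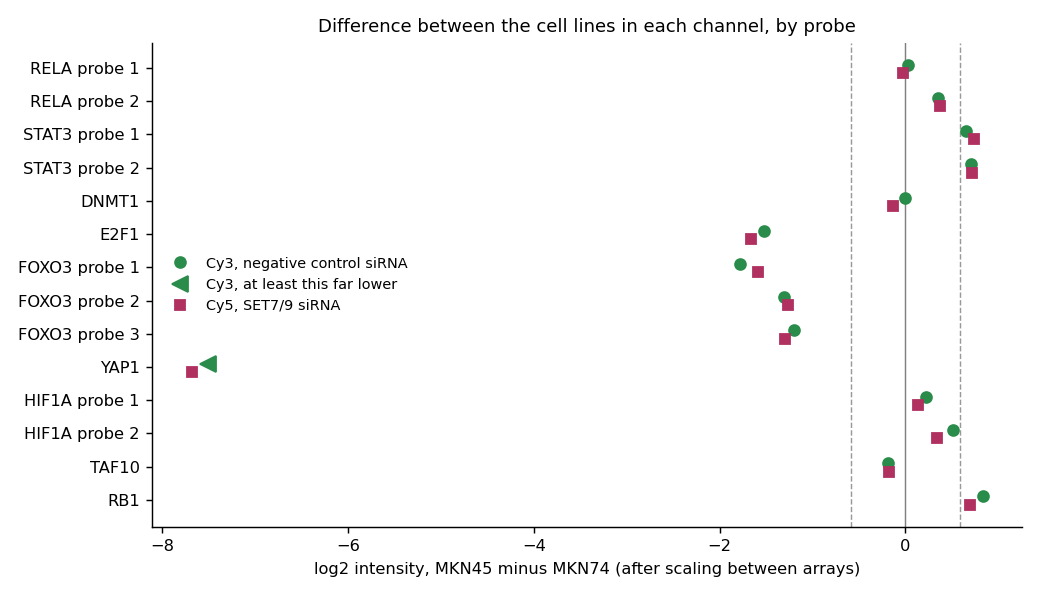
Difference in log2 intensity, MKN45 minus MKN74, of the 14 substrate probes in Cy3 (circles, negative control siRNA) and Cy5 (squares, SET7/9 siRNA) after scaling between arrays; the triangle is a bound and dashed lines mark 1.5-fold. YAP1 lies beyond -7, E2F1 and FOXO3 between -1.78 and -1.20 in Cy3, and RB1 and STAT3 to the right of the upper dashed line.

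The partners of the substrates were read from 10 lists with 107 genes, which cover other known SET7/9 substrates, the erasers and readers of the mark, NF-kB and inhibitor proteins, STAT proteins and JAK kinases, the DNA methylation machinery, the pocket protein and E2F network, FOXO regulators, the Hippo pathway, HIF partners and TFIID subunits. In MKN74, 95 of the 107 genes had a probe measured in both channels, of which 1 was at least 1.5-fold higher and 1 at least 1.5-fold lower with SET7/9 siRNA. In MKN45, 103 genes were measured and 0 passed in either direction. The shares over all probes measured in both channels are those given above.

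The list gene that was higher in MKN74 was SGK1, a kinase that phosphorylates FOXO3. Its log2 ratio was 0.87 in MKN74, with an error of 0.22, and 0.23 in MKN45, with an error of 0.21. The lower one was TET1, which oxidises methylated cytosine, whose log2 ratio was -0.63 in MKN74 (error 0.22) but 0.38 in MKN45 (error 0.21). A second TET1 probe was not well above background in either channel of MKN74 and was at 0.31 (error 0.33) in MKN45.

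The median log2 ratio of a list, with the brightest kept probe for each gene, was 0.06 in MKN74 and -0.01 in MKN45 for the 16 other substrates, of which 11 and 14 were kept. It was 0.02 and 0.03 for the 9 erasers and readers, 0.13 and 0.12 for the 10 NF-kB partners, and 0.0056 and 0.09 for the 11 STAT and JAK genes. For the 8 genes of the DNA methylation machinery it was -0.06 and -0.03, with 7 kept, and for the 14 genes of the pocket protein and E2F network 0.0054 and 0.04. The 6 FOXO regulators and family members stood lowest, at -0.19 and -0.13. The Hippo list gave 0.04 and 0.09 over 11 genes, the HIF list 0.05 and 0.13 over 7 and 9 kept genes, and the 15 TFIID subunits 0.03 and -0.08. These medians are set beside 0.0045 and 0.015 over all genes, and no list was tested.

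Because YAP1 differed so widely between the cell lines, the control level of its Hippo partners is given with it, singled out after the values were seen. Of 15 probes for 11 genes, 9 were at least 1.5-fold lower in MKN45 in Cy3, beside 33.3% of all probes, and 1 at least 1.5-fold higher, beside 26.1%. The median log2 difference was -0.94 beside -0.12 over all probes, and nothing was tested for this list. WWTR1, which encodes TAZ, the paralog of YAP1, was the higher one, at a Cy3 intensity of 68.6 in MKN74 and 433 in MKN45, a 6.23-fold difference after scaling; a second WWTR1 probe was not well above background. TEAD1, a DNA-binding partner of YAP1, was 4.25-fold lower, at 4534 and 868. LATS2, the kinase that phosphorylates YAP1, was 5.99-fold lower, at 598 and 101. STK3, an upstream kinase, was 9.89-fold lower at 1 probe and 2.38-fold lower at the other. LATS1 differed between its probes, 1 being at least 3.30-fold lower and the other at a log2 difference of 0.06.

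**Figure D5:**
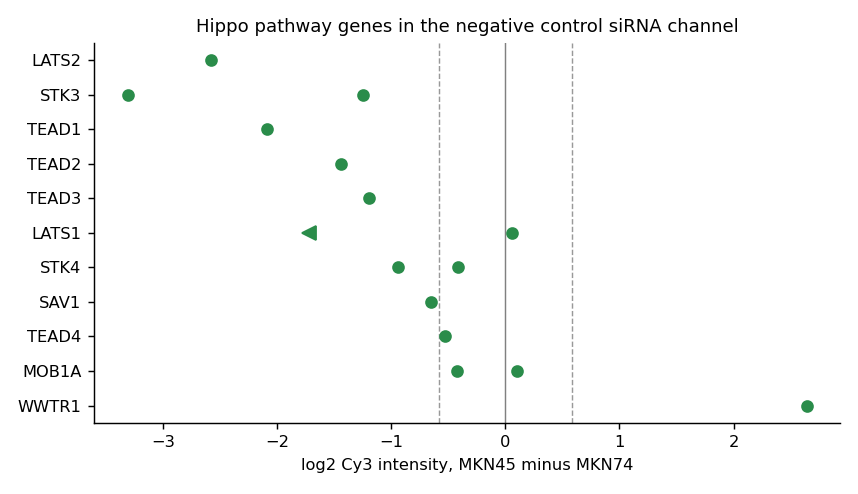
Difference in log2 Cy3 intensity, MKN45 minus MKN74, for the 15 probes of 11 Hippo pathway genes with negative control siRNA; each point is a probe, the triangle is a bound and dashed lines mark 1.5-fold. WWTR1 lies alone to the right at 2.64, and 9 probes lie to the left of the lower dashed line, down to -3.31 for STK3.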

How the data were processed

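The authors deposited Agilent Feature Extraction 10.7.3.1 output, with background-subtracted and dye-normalized intensity per channel, the log10 ratio of Cy5 to Cy3 of each spot, and coordinates on GRCh37. A table of rounded log2 ratios, deposited beside it, was used as an alternative. Which SET7/9 siRNA was hybridised is not given in the sources used here. Ratios were converted to log2 and averaged over the spots of a probe, without outlier spots (4 of the 68 substrate spots in MKN74, 3 in MKN45); no spot was saturated. Probes entered where Cy3 or Cy5 rose well above background on 50% or more of their spots. Analyses used limma 3.58.1 in R 4.3.3 and Python 3.11.15. The limma step was tested on simulated data with planted changes larger than any substrate ratio, which gives no measure of its power for smaller changes. Alternatives covered the background correction, normalization, filters, cutoff, choice of probe and scaling between arrays. Genes named beside the substrates and SETD7 are list genes past 1.5-fold with both channels well above background, and others are marked where named. The substrates and the lists were chosen with earlier results of these data known.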

Additional observations from a re-analysis of the deposited data

How the results depend on the processing

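With 1 array per cell line the precision is set by the number of arrays, and a ratio with a channel not well above background, as for YAP1 in MKN45, has no firm size. The count of substrate probes past 1.5-fold in MKN45 was 1, and it was 0 after normexp and loess, after median centring, in the deposited table, with both channels required and with a cutoff of 2-fold. In MKN74 the count of 0 rose to 3 with a lower cutoff of 0.32 on the log2 scale, the probes being DNMT1, FOXO3 probe 3 and HIF1A probe 2. The share of all probes past that lower cutoff was not counted, so the 3 cannot be set against it. The MKN74 count was 0 under the other alternatives. The limma count of 0 substrate probes rose to 3 after normexp and loess and was 0 under median centring, the deposited table and the both-channel filter. The YAP1 difference between the cell lines was the 1 of 14 ratio differences beyond its combined error, and that count was 0 after normexp and loess, after median centring and in the deposited table. For YAP1 the deposited table and the both-channel filter hold no MKN45 value, so their counts of 0 were fixed by construction and say nothing of its ratio. The normexp offset draws the ratio of its dim MKN45 signals towards 0 by construction as well. The cause of the other changes was not tested. The count of 8 probes past 1.5-fold between the cell lines ran from 6 to 8. The median substrate ratio lay between 0.043 and 0.097 in MKN74 and between 0.051 and 0.123 in MKN45, the lowest value in both coming from the mean over the probes of a gene, and including the setting without YAP1, chosen after seeing the data. No paired analysis was possible because each cell line had 1 array, and leaving out an array leaves no residual degrees of freedom.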

Other observations

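The probes within 300 kb of the YAP1 probe on chromosome 11 were read after its values were seen, and are given with no test. On the 5′ side, the C11orf70 probes 171 kb and 149 kb away had Cy3 intensities of 205 and 325 in MKN45, where they were well above background, and 3.31 and 3.84 in MKN74, where they were not. After scaling, C11orf70 was at least 9.07-fold and at least 15.3-fold higher in MKN45. On the 3′ side, BIRC3, an inhibitor of apoptosis protein 108 kb away, had Cy3 intensities of 145 in MKN74 and 258 in MKN45, and was 1.83-fold higher in MKN45. BIRC2, its neighbour at 148 kb, was at 912 and 414 and was 1.90-fold lower. TMEM123 at 167 kb was at 4012 and 2278, a difference of 1.41-fold. MMP7, a matrix metalloproteinase gene at 293 kb, was not well above background in MKN74 and was at 359 in MKN45, at least 17.5-fold higher. These genes had signal well above background in both channels of MKN45, as did LOC727869, at a Cy3 intensity of 26.0. KIAA1377, the remaining name in this window, was well above background in MKN45 in Cy5 only, at a Cy3 intensity of 4.56. Unlike YAP1, it was not well above background in either channel of MKN74, where its Cy3 intensity was 4.11.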
